A study of Homo sapiens with 6 samples.

Results

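The 10 genes described here form the oxygen-sensing core of the hypoxia-inducible factor (HIF) pathway: the α subunits Hif1a, Epas1 (HIF2α) and Hif3a, the β subunits Arnt and Arnt2, the prolyl hydroxylases Egln1, Egln2 and Egln3, the asparaginyl hydroxylase Hif1an and the ubiquitin ligase subunit Vhl. They were chosen by symbol, and all 10 were found among the 22989 genes of the deposited count table. By the paper's account, RNA was sequenced from paclitaxel (PTX)-resistant MDA-MB-231 breast cancer stem cells (BCSC). There were 3 libraries of cells carrying a short hairpin RNA (shRNA) against the long non-coding RNA LINC00115 (LINC00115 KD). The other 3 libraries were labelled WT and are called control here. MDA-MB-231 is an established human cell line of triple-negative breast cancer, the resistance to PTX is shared by both groups, and the methods sort BCSC by high aldehyde dehydrogenase (ALDH) activity. The labels number the KD libraries sh115-1 to sh115-3 as replicates, 2 of which (sh115-1 and sh115-2) are elsewhere the names of different shRNAs, and a figure legend for this RNA-seq comparison names the shRNA sh115-2. Nothing in the labels says that replicates came from separate cultures or that the WT cells carried a control shRNA. The p-values measure the spread between these libraries only.

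HIF is a heterodimer of an oxygen-regulated α subunit and a constitutive β subunit. In oxygenated cells the EGLN enzymes hydroxylate prolines of the α subunit, VHL binds the hydroxylated protein and delivers it for degradation by the proteasome, and HIF1AN hydroxylates an asparagine that blocks the binding of coactivators. When oxygen is short the α subunit escapes both steps, pairs with ARNT and switches on genes of glycolysis, angiogenesis and survival, some of which encode EGLN enzymes themselves. The counts measure RNA and give no value for the protein on which these steps act.

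The libraries held between 36979221 and 38799331 counts. The symbols in the table are written in the style of mouse genes, although the labels give Homo sapiens. Of the 22989 symbols, 4648 are Gm names, 1129 are Rik names and 16 equal a human symbol as written. Apart from case, 14422 equal a human symbol. The counts thus carry the gene names of a mouse annotation. The species of the cells sequenced could not be settled from these names alone. Symbols are printed as the table gives them, and what each gene is known to do is stated for the gene of that name. The table has 0 rows for LINC00115, so the knockdown itself could not be checked. Of the breast cancer and ALDH markers listed, Vim, Cd44, Krt8 and Krt18 were well counted. Epcam had at most 5 counts in any library and the ALDH gene Aldh1a3 at most 4. The list also holds the receptor genes Esr1, Pgr and Erbb2. Triple-negative cancer is named for the lack of these receptors, so a rise in their genes is no mark of the labelled cells. Of 8 genes of this list tested, 7 were higher in the KD libraries past edgeR's adjusted p of 0.05 (36.7% of all genes tested). Esr1 and Erbb2 (log2 fold change 0.70) were among them. At a 2-fold change as well, 3 were called higher (10.2% of all genes tested): the ALDH gene Aldh1a1 (8 to 17 counts in the controls and 39 to 52 in the KD libraries, log2 fold change 1.82), the cadherin gene Cdh1 (1 to 3 against 22 to 31 counts) and the estrogen receptor gene Esr1 (1.87, on 24 to 29 against 82 to 105 counts). Cdh1 entered the test only through the KD libraries and so had to differ. Aldh1a1 had 8 counts in its lowest control library, under the minimum count of 10, so the controls alone would not have passed it. Its call is therefore not read as evidence of a rise. Many markers of other cells were higher in the same libraries, as given below with Epas1. These included all 10 listed for lung epithelium and 8 of 10 for kidney tubule, where 1 other marker was lower. Values are given in normalized CPM, CPM being the count scaled to a fixed library total, after TMM scaling, which aligns libraries on the bulk of their genes. Genes were tested with the quasi-likelihood test of edgeR over 13497 genes, and those past an adjusted p of 0.05 and a 2-fold change, the limits in the study's methods, were called.

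Among the prolyl hydroxylases, Egln1 and Egln3 fell and Egln2 rose. For these paralogs, the 250 bases before the transcription start of the human genes are printed from RefSeq (GRCh38.p14). They run 5′ to 3′ on the strand of the gene. Any link between these sequences and the direction of change was not tested. EGLN1 lies on the minus strand (chr1:231422288-231422537), EGLN2 on the plus strand (chr19:40798941-40799190, the first of its listed starts) and EGLN3 on the minus strand (chr14:33951075-33951324). Capitals mark the core letters of a hypoxia response element, ACGTG or GCGTG, on either strand.
EGLN1: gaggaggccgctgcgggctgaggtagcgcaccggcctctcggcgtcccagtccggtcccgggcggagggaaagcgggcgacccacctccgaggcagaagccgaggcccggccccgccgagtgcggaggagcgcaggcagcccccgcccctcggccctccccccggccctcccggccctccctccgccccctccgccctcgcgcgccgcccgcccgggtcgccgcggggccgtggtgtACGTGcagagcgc
EGLN2: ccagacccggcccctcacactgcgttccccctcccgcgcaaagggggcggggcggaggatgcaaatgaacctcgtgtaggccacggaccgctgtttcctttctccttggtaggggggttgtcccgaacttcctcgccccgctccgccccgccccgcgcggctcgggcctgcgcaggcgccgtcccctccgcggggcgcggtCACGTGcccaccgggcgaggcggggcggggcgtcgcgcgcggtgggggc
EGLN3: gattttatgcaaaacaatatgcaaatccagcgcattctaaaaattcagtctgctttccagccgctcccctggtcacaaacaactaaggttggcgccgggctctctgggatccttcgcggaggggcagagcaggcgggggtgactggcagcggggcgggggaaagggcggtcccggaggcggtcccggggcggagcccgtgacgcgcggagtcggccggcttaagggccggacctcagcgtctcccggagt
The EGLN1 window held ACGTG 13 bases before the start. The EGLN2 window held CACGTG, in which the match on one strand overlaps that on the other, 49 bases before the start, while the window of its other listed start held neither core. The EGLN3 window held neither core. One or the other core was found in 43.2% of 35116 RefSeq promoter windows of the same length, and ACGTG in 18.5%, so a match is common and does not mark a site of binding. These are human sequences, shown for the labelled organism, and were not matched to the reads counted. RefSeq promoters were matched for 8 of the 10 genes and not for Arnt2 and Vhl. Among the 12 windows of those 8 genes, 5 held either core and 2 held ACGTG.

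Of the 10 genes, 9 passed the filter on low counts and entered the test, and Hif3a did not. Epas1 passed only through the KD libraries and so had to differ. At the limits of the test, 2 genes (Egln1 and Vhl) were called lower and 1 (Epas1) was called higher, where 9.98% of all genes tested were called lower and 10.2% higher. Without the limit on the fold change, 4 were lower (background 36.7%) and 5 were higher (background 36.7%), and 73.4% of all genes tested changed in either direction. Normalized CPM of the groups did not overlap for any of the 9, and this was so for 75.6% of all genes tested. With 9 genes these shares are given as a description only, and no result about the genes as a group was drawn from them. What follows rests on each gene's own size and direction of change. The median of the absolute log2 fold change over all genes tested was 0.453.

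**Figure D1:**
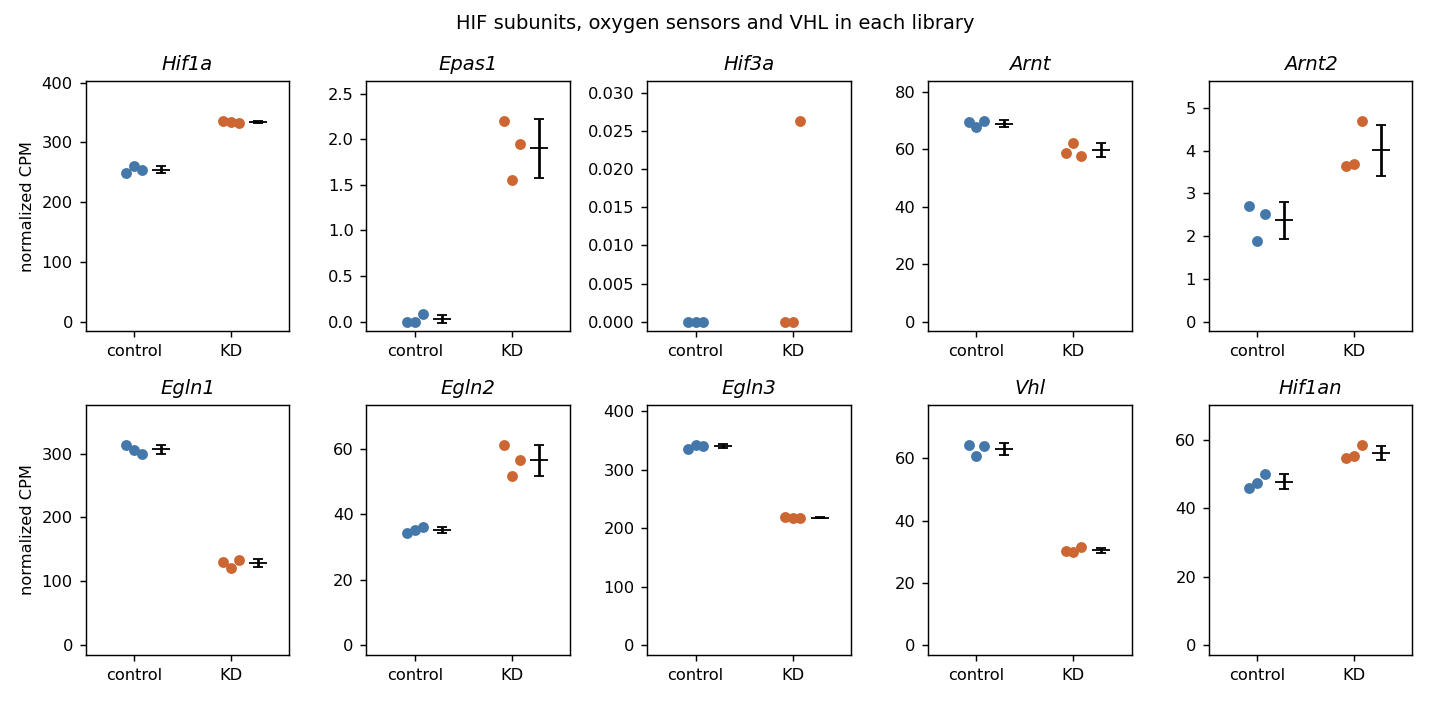
Normalized CPM (vertical axis, a separate scale starting near 0 in each panel) of the 10 genes in the 3 control (blue) and 3 LINC00115 KD (orange) libraries, with the mean and SD of each group in black (not drawn for Hif3a, which was not tested). Egln1, Egln3, Vhl and Arnt sit lower in every KD library, and Hif1a, Epas1, Arnt2, Egln2 and Hif1an sit higher.

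Hif1a encodes the α subunit on which the study centres. Its level was 248, 260 and 254 normalized CPM in the control libraries and 336, 334 and 333 in the KD libraries. Every KD library was above every control library, and the KD libraries lay closer together than the controls. The mean of 254 ± 5.94 normalized CPM in the controls became 334 ± 1.68 (SD, n = 3 each), a rise of 31.5% (log2 fold change 0.40 with a standard error of 0.03, edgeR's adjusted p = 1.11e-12). The change was under the 2-fold limit and near the median size of change over all genes. Among all genes tested, 26.7% had a larger increase. The rise had the same sign in every alternative, with log2 fold changes from 0.35 to 0.41.

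Epas1 encodes HIF2α, the α subunit best known from endothelial cells, lung and kidney. It had 0, 0 and 3 counts in the control libraries and 85, 57 and 74 in the KD libraries. The KD level was 1.90 ± 0.325 normalized CPM (SD, n = 3), so this gene went from the limit of detection to a low level. From 3 counts in all controls and 216 in all KD libraries, relative to library totals, the ratio was 70.9, with an exact binomial 95% interval from 24.0 to 347 that covers counting error only. The fitted log2 fold change was 5.997 (with a standard error of 0.67, edgeR's adjusted p = 7.84e-10), and it was 9.17 without control replicate 3, the only control library with a count. In bulk RNA, a gene present in a few cells and a gene at a low level in all cells cannot be told apart.

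Many markers of other cells were higher in the KD libraries along with Epas1, while others did not change or were lower. All 10 lung epithelium markers were higher in the KD libraries without overlap, with a summed level of 1.62 to 1.85 normalized CPM in the controls and 73.5 to 84.0 in the KD libraries. Sftpc and Scgb1a1, lung secretory genes, were at 0 counts in every control library and at 520 to 589 and 1516 to 1843 counts in the KD libraries. Among 10 endothelial markers, 4 were higher without overlap and 1 was lower. Their sum went from at most 1.91 to at least 58.3 normalized CPM, of which the cadherin gene Cdh5 made up nearly all (0.221 against 57.8 on average). The defining endothelial genes Kdr, Tek, Emcn and Erg had at most 10 counts in any library, and Pecam1 had 6 to 19. Of 10 kidney tubule markers, 8 were higher and 1 was lower in this way (summed 16.7 to 19.5 against 42.0 to 46.0 normalized CPM), and of 6 erythroid markers, 4 were higher (at most 0.159 against at least 1.66). Of 10 leukocyte markers, 4 were higher and 1 lower (71.9 to 86.0 against 144 to 160), with Cd3e at 0 in all libraries. The lower one, Csf1r, was at the floor, with 2 to 3 counts in the controls and 0 to 2 in the KD libraries. Most of the difference in the sum was S100a8 (33.0 against 95.2 on average). Ptprc, which defines leukocytes, had 5 to 12 counts in the controls and 8 to 13 in the KD libraries. Cd68 did not pass the test (42.8 against 47.2, edgeR's adjusted p = 0.0901). Fibroblast markers went the other way in sum (175 to 194 against 76.9 to 79.1), most of it Pdgfra. Of the 8 listed, 3 were lower and 1 was higher without overlap, the higher one being Acta2 (2 to 7 against 14 to 27 counts). Groups did not overlap in either direction for 75.6% of all genes tested, so these counts are read with the summed levels and not alone. That share covers tested genes only, while the marker counts also include listed genes with too few counts to be tested. The part of such cells in the Epas1 counts was not tested.

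Hif3a encodes the least studied α subunit, whose short splice forms inhibit HIF. It had 0 counts in 5 libraries and 1 count in KD replicate 3. A count of 0 allows up to 3 counts, or 0.0773 to 0.0811 CPM at these library totals, so a difference was not detectable at this depth.

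The β subunits moved in opposite directions by moderate amounts. Arnt encodes the partner shared by HIF and the dioxin receptor. It was at 69.4, 67.6 and 69.8 normalized CPM in the controls and at 58.8, 62.3 and 57.7 in the KD libraries. The KD values were all lower, and Arnt fell by 13.5% (log2 fold change −0.21 with a standard error of 0.05, edgeR's adjusted p = 0.000391). Arnt2, a β subunit known mainly from neurons and kidney, was at 2.71, 1.88 and 2.51 in the controls and at 3.65, 3.68 and 4.69 in the KD libraries. The groups did not overlap, but on 71 to 178 counts per library the spread was wider than that of Arnt. Its log2 fold change was 0.76 (with a standard error of 0.22, edgeR's adjusted p = 0.00288), and with single libraries left out it ranged from 0.62 without control replicate 2 to 0.86 without control replicate 1.

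Egln1 encodes PHD2, regarded as the main oxygen sensor that sets HIF1α in oxygenated cells. It was at 314, 306 and 300 normalized CPM in the controls and at 130, 121 and 134 in the KD libraries. No KD library came near the controls, and the mean went from 307 ± 6.83 to 129 ± 6.54 (SD, n = 3 each). Egln1 fell by 58.1% (log2 fold change −1.25 with a standard error of 0.04, edgeR's adjusted p = 6.21e-25), and 7.33% of all genes tested fell more. Apart from Epas1, it was the largest change among the 9 genes tested.

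Egln3 encodes PHD3, a hydroxylase known to be induced by HIF. It was at 336, 343 and 342 normalized CPM in the controls and at 219, 218 and 218 in the KD libraries. This was the tightest of the genes, with a coefficient of variation of 1.05% in the controls and 0.308% in the KD libraries. It fell by 35.8% (log2 fold change −0.64 with a standard error of 0.03, edgeR's adjusted p = 2.22e-18), short of the 2-fold limit.

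Egln2 encodes PHD1, which is not known as a hypoxia-induced gene. It was at 34.4, 35.3 and 36.1 normalized CPM in the controls and at 61.3, 51.7 and 56.5 in the KD libraries. The KD libraries were all higher and more spread out, with a coefficient of variation of 8.43% against 2.33%. The rise was 60.3% (log2 fold change 0.68 with a standard error of 0.06, edgeR's adjusted p = 5.98e-12).

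Vhl encodes the subunit that recognizes hydroxylated HIF α. It was at 64.3, 60.7 and 63.7 normalized CPM in the controls and at 30.2, 30.0 and 31.4 in the KD libraries. The level fell by 51.5% (log2 fold change −1.04 with a standard error of 0.06, edgeR's adjusted p = 1.01e-17), just past the 2-fold limit. It stayed past that limit in all 13 alternatives, from −1.08 to −1.02. Hif1an encodes factor inhibiting HIF (FIH), the asparaginyl hydroxylase. It was at 46.1, 47.3 and 50.2 in the controls and at 54.6, 55.4 and 58.5 in the KD libraries, without overlap. Its rise of 17.4% (log2 fold change 0.23 with a standard error of 0.06, edgeR's adjusted p = 0.000364) was among the smallest of the genes tested, near that of Arnt in size.

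**Figure D2:**
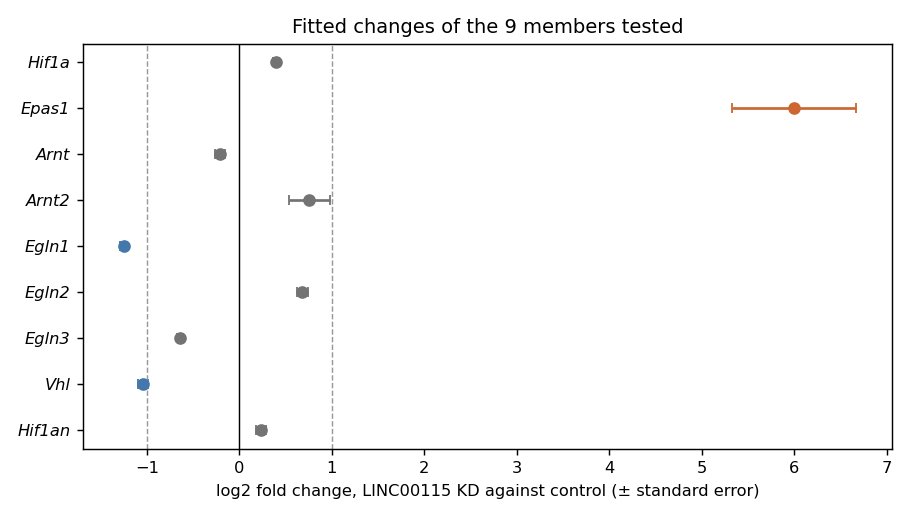
Fitted log2 fold change of LINC00115 KD against control (horizontal axis, with standard error) for the 9 genes tested. Blue marks genes called lower, orange those called higher and grey the others, and dashed lines mark a 2-fold change. Egln1 (−1.25) and Vhl (−1.04) lie below the lower line and Epas1 (5.997) lies above the upper one.

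Since counts of different genes depend on their lengths, genes were compared with each other only by how their ratio within a library differed between the groups, which needs no scaling between libraries. Of 8 pairs set, 6 had at least 10 counts for both genes in every library, and both pairs with Epas1 or Hif3a did not. All 6 ratios differed between the groups without overlap. For each, the two-sided exact permutation p was 0.1 (0.1 adjusted over the 6 pairs), which is the smallest that 3 libraries against 3 can give, so none could pass 0.05. The largest shift was that of Egln2 against Egln1. For every 100 counts of Egln1 there were between 10.97 and 12.02 of Egln2 in the controls and 42.1 to 47.1 in the KD libraries, a difference of 1.93 in the log2 ratio. Hif1an against Egln1 shifted by 1.49, from 14.7 to 16.7 counts per 100 in the controls to 41.9 to 45.7 in the KD libraries. Egln3 and Egln1 both fell, and Egln3 fell less, with 107 to 114 counts per 100 of Egln1 in the controls and 163 to 180 in the KD libraries (log2 ratio 0.62 higher). Vhl counts per 100 of Hif1a went from between 23.3 and 25.9 to between 8.96 and 9.46 (a difference of −1.44 in the log2 ratio). Hif1a per 100 Arnt went from 358 to 385 up to 536 to 576 (0.61 higher), and Arnt2 per 100 Arnt from 2.78 to 3.90 up to 5.90 to 8.12 (0.97 higher).

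**Figure D3:**
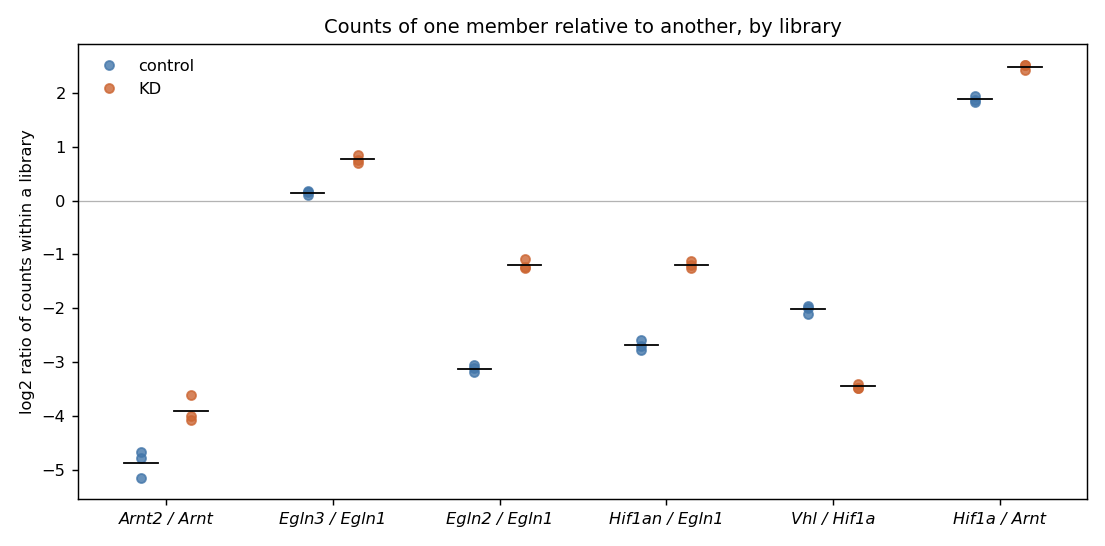
Log2 ratio of the counts of one gene to those of another within each library (vertical axis) for 6 pairs, in control (blue) and LINC00115 KD (orange) libraries, with the group mean as a black line. Only the shift between the groups can be read, since the height of a pair depends on gene lengths. The shift is largest for Egln2 against Egln1 (1.93) and is downward only for Vhl against Hif1a (−1.44).

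The genes whose profile over the 6 libraries was most like that of a member were found by the Euclidean distance between centred log2 values among 11648 other genes. For Hif1a these were Ywhah, Zpr1 and Zfp646 (distances 0.0297, 0.0319 and 0.0329). For Egln1 they were Pcmtd2, Ccdc167 and Sh3bp1 (0.0692, 0.1 and 0.11), and for Vhl they were Pask, Natd1 and Me2 (0.0572, 0.065 and 0.0771). With 2 groups, this likeness reflects mostly the size of the group difference.

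The partners of VHL were lower for the most part. Of 8 genes of the VHL ubiquitin ligase complex and of the enzymes and chaperone that work with it, 6 were lower and 1 higher past edgeR's adjusted p of 0.05, where 36.7% of all genes tested were lower and 36.7% higher. Their median log2 fold change was −0.44, against −0.0061 over all genes tested. None was called, since no change reached 2-fold. Elongin C (Eloc) had a log2 fold change of −0.70 and elongin B (Elob) one of −0.57, while the scaffold cullin Cul2 (0.08, adjusted p = 0.183) did not pass the test and the RING subunit Rbx1 was at 0.13 (adjusted p = 0.00762). With upper quartile scaling, Rbx1 no longer passed and 0 genes were higher.

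Other genes that act on the HIF α protein went both ways. Of 18 tested, 8 were lower and 8 were higher past the adjusted p of 0.05, with a median of 0.12, where the share over all genes tested was 36.7% each way. Called lower was Usp20, a deubiquitinase that VHL itself binds, which went from 35.2 to 16.4 normalized CPM (log2 fold change −1.10, edgeR's adjusted p = 6.42e-15). Called higher was Plk3, the kinase that the study places upstream of HIF1α, which went from 45.3 to 143 (log2 fold change 1.66, edgeR's adjusted p = 1.35e-25). Setdb1, the methyltransferase of the proposed axis, had a log2 fold change of −0.22, and P4htm, a transmembrane prolyl hydroxylase, had at most 5 counts and was not tested. The ubiquitin ligases of EGLN enzymes, Siah1a, Siah1b and Siah2, were all higher, with log2 fold changes of 0.38, 0.40 and 0.51. Siah1a and Siah1b are near-identical copies, and how reads shared by them were counted is not known here.

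Coactivators and inhibitors of HIF were also divided, with 5 lower and 7 higher of 12 tested past the adjusted p of 0.05 (36.7% each way over all genes tested) and a median of 0.16. Crebbp, which encodes the coactivator CBP, was higher (log2 fold change 0.92), while its paralog Ep300 changed little (0.15, edgeR's adjusted p = 0.000584). Cited2, which competes with HIF α for both, was lower (−0.43). Ncoa1, a coactivator of the bHLH-PAS family, was the only gene of this list called, from 7.47 to 24.6 normalized CPM (log2 fold change 1.72, edgeR's adjusted p = 1.31e-16). Among other bHLH-PAS factors, which share the fold and partners of HIF, 7 of 11 were tested, with 3 lower and 3 higher against the same share. The dioxin receptor gene Ahr (log2 fold change 1.36) and Sim2 (1.16) were called higher. Npas4 was called lower (−1.66, edgeR's adjusted p = 0.0228) on 11 to 29 counts in the controls and 2 to 14 in the KD libraries. It passed the filter on low counts through the controls, where it is high, so its call is no evidence of a fall. Npas4 was no longer called with DESeq2, or without control replicate 1 or 2 or KD replicate 1 or 3, with an adjusted p of up to 0.138. With at least 10 counts required in every sample it was not tested.

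The genes that HIF switches on were lower in most cases. Of 49 target genes tested, 41 were lower and 4 were higher past edgeR's adjusted p of 0.05, where 36.7% of all genes tested were lower and 36.7% higher. At the limit on the fold change as well, 29 were called lower and 2 higher, where 9.98% of all genes tested were called lower and 10.2% higher. The median log2 fold change was −1.32. By the rule for named genes, the largest falls were those of Aldoc (−2.82), Ankrd37 (−2.70), Eno2 (−2.56) and Car9 (−2.55), which encode an aldolase, an ankyrin repeat protein, an enolase and a carbonic anhydrase. Pfkfb4 (1.08) and Lox (3.21, on 4 to 8 against 53 to 68 counts, named after its values were seen) were called higher. Like Epas1, Lox passed the filter on low counts only through the KD libraries and so had to differ, and with at least 10 counts required in every sample it was not tested. Egln1 and Egln3, which this list left out as members, thus fell along with most of it and less than its median. Loxl2 was called lower but not without control replicate 3 or KD replicate 1 (adjusted p up to 0.0845). Car12 was called lower but its change came under 2-fold without control replicate 1 or KD replicate 2 or 3 (−0.97 at the smallest).

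Genes reported to lean on HIF2 went both ways. Of 12 listed, 10 were in the table and 6 were tested, with 2 lower and 4 higher past the adjusted p of 0.05 (36.7% each way over all genes tested) and a median of 0.16. With upper quartile scaling 2 were higher. Tgfa, a ligand of the EGF receptor, was the only one called, from 126 to 32.8 normalized CPM (log2 fold change −1.95, edgeR's adjusted p = 4.95e-27). The iron transporter gene Slc11a2 was higher (0.65) and the cyclin gene Ccnd1 was higher (0.39). These lists are described by counts and medians only, were chosen with earlier results of these data known, and are no independent evidence of a direction.

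**Figure D4:**
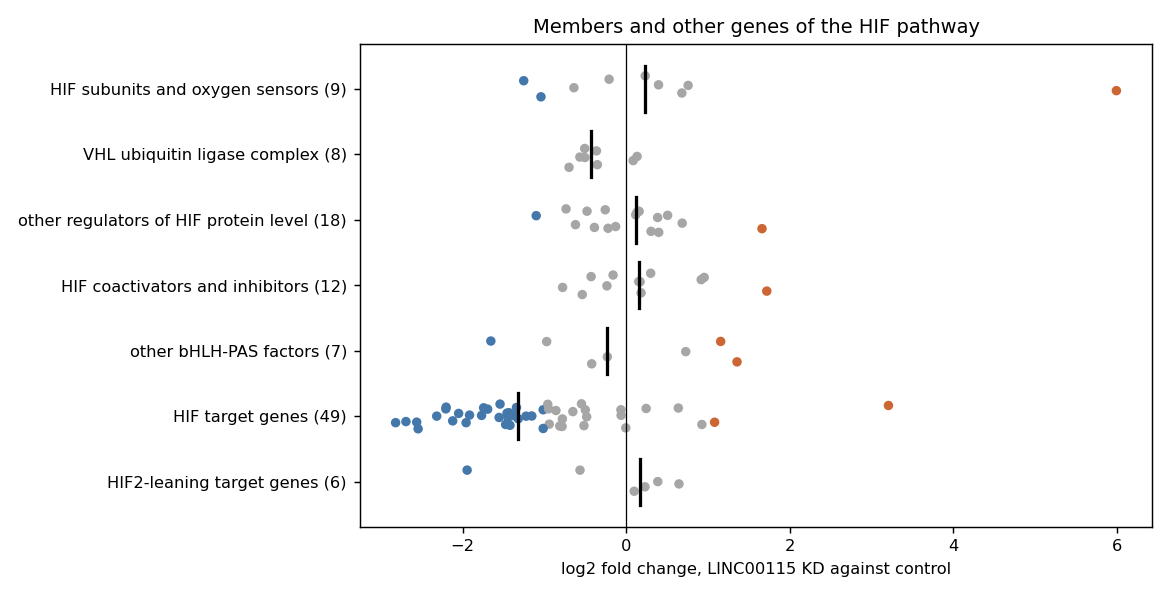
Log2 fold change of LINC00115 KD against control (horizontal axis) for each gene tested in the 10-gene core and in 6 lists of HIF pathway genes, with the number tested in parentheses. Black bars mark medians, blue genes called lower, orange genes called higher and grey the others. The HIF target genes have a median of −1.32, while the core genes lie on both sides of 0.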

How the data were processed

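RNA-seq read counts of 3 LINC00115 KD and 3 control libraries were used. Per the paper's methods, the authors removed adapters and aligned to hg19 using HISAT2 with its defaults, while the submitters' processing notes name hg38, HISAT2, featureCounts and DESeq2. How strand was used and which annotation are not given in the sources used here. The deposited table holds whole-number counts per gene without normalization, with 0 blank gene names and 0 columns of values not used. Columns were matched to samples by the description in the labels.

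edgeR 4.0.16 under R 4.3.3 was used for the tests (filterByExpr with minimum count 10 and minimum total 15, TMM, quasi-likelihood test, group as the only term, Benjamini-Hochberg adjustment over 13497 genes). Standard errors were obtained by dividing the absolute log2 fold change by √F. Ratios within a library used a pseudocount of 0.5 counts, and profiles 0.5 CPM among genes with a mean of at least 1 CPM. Library totals of 36979221 to 38799331 counts limit precision for genes with few counts, and intervals cover counting error only. Within a group, chi-square per degree of freedom between libraries was 3.88 to 7.60, above sampling noise, so none was a copy. The script was tested on simulated counts.

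All members are named with every library, together with genes of each pathway list that were called (for more than 8, the 4 largest each way whose higher group had 100 or more counts in each library) and the 3 nearest profiles of Hif1a and of each called member with a mean of at least 1 CPM, which left out Epas1. Any other named gene was picked once its values were known. The members and lists were chosen with earlier results of these data known. Alternatives were scaling by size factors of DESeq2, by upper quartile or by library size alone, no filter, at least 10 counts in every sample, DESeq2 1.42.0, the replicate number as a block, each library left out in turn, no fold-change limit and a ratio pseudocount of 1. Promoters were read from RefSeq (GRCh38.p14), of which only the 250 bases before the start were used.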

Additional observations from a re-analysis of the deposited data

How the results depend on the processing

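Each of the 9 genes tested kept its direction and an adjusted p under 0.05 in every alternative that could be run. The largest adjusted p was 0.0259, for Arnt2 without LINC00115 KD replicate 3 (edgeR's quasi-likelihood test). For Epas1 this is no sign of stability, since it passed the filter only through the KD libraries and so had to differ. With at least 10 counts in every sample, Epas1 could not be tested, so 0 members were called higher, and over all genes 903 were called higher in place of 1381. Without the fold-change limit, 4 members were lower and 5 higher, and over all genes 4960 were lower and 4952 higher in place of 1347 and 1381. Replicate numbers did not pair the samples: same-numbered libraries had correlations of their deviations of −0.0238, −0.016 and −0.00731, and no library correlated best with its own number. With the replicate block, 1316 genes were called lower and 1360 higher, 2 and 1 members were called as before, and in the paired sign-flip test of the 6 ratios the exact p was 0.25, the smallest it can give. No scaling moved the median of all genes by over 0.1 on the log2 scale. Depth limits Epas1 and Hif3a, whose control counts were at or under 3.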
